A study of Mus musculus with 6 samples.

Results

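Chemokine ligand genes are described here across 6 RNA-seq libraries of 3T3L1, a mouse line of fibroblast shape that had been differentiated into adipocytes. The genes were chosen by symbol, as every row that begins with Ccl, Cxcl, Cx3cl or Xcl followed by digits. This gave 40 of the 53342 genes in the deposited table, of which 25 carry Ccl symbols, 13 Cxcl, 1 Cx3cl and 1 Xcl. Earlier results of these data were known when the family was chosen. There were 2 libraries from cells differentiated with LTK-14A, which the labels name as an inhibitor of butyrylation, 2 from cells differentiated with its solvent DMSO, and 2 from untreated cells, differentiated with neither. All 6 samples received the same hormone cocktail at 2 days after confluence, with insulin at 1 µg/ml, dexamethasone at 1 µM and the phosphodiesterase inhibitor IBMX at 0.5 mM. The cocktail was left on for 2 days, and insulin alone was then continued, in medium with 10% foetal bovine serum. Dexamethasone, a glucocorticoid, was thus part of every group. The libraries come from 1 immortal line, and the labels name no other cell type. How much LTK-14A was used, and from when, is not stated in the labels. Nothing in the labels says that the replicates were separate cultures, so a p-value covers the spread between 2 samples a group, which may be technical.

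Chemokines are small secreted proteins that steer the movement of leukocytes by binding G protein-coupled receptors and by forming gradients on heparan sulfate. They are sorted by the spacing of their first cysteines into CC, CXC, CX3C and C families, and several sit in gene clusters that arose by tandem duplication. In adipose tissue, preadipocytes and adipocytes are themselves a source of chemokines such as Ccl2, which recruits monocytes, and Cxcl12, which retains and guides cells that carry Cxcr4.

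Of the 40 genes, 27 had a value above 0 in at least 1 library and 13 were listed at 0 in all 6. A listed 0 stands for a normalized read count of at most 1, so it says only that the gene was not detectable at this depth, and the depth itself is unknown because the table holds no raw counts. The 13 were Ccl12, Ccl19, Ccl19-ps1, Ccl19-ps3, Ccl20, Ccl21a, Ccl21b, Ccl22, Ccl24, Ccl26, Ccl27b, Cxcl14 and Xcl1. They include the ligands of Ccr7 (Ccl19, Ccl21a and Ccl21b), which guide cells within lymphoid tissue. Of the exon sequence of Ccl19, Ccl21a, Ccl21b and Ccl27b, 52.0%, 71.6%, 100% and 98.1% lay in runs of 50 bases that other annotated genes share. Reads from these genes could have been split or dropped in counting, so their values are uncertain. Another 4 genes were above 0 in 1 library each, at 2.31 for Ccl3 and 1.80 for Ccl4 in LTK-14A replicate 1, and at 1.90 for Ccl1 and 1.19 for Cxcl2 in untreated replicate 1. This left 23 genes with a normalized value of at least 1 in at least 2 libraries, which were tested, and 17 of the 40 were above 0 in all 6 libraries. None of the 23 reached 1 in only 1 of the 3 groups.

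The libraries summed to between 6122687 and 7091007 normalized reads, and 21550 to 22289 genes lay above a value of 1 in each. Untreated replicate 2 stood apart in having 16.4% of its sum in ribosomal RNA loci, against 8.60% to 10.6% in the other 5 libraries. The label of a differentiated adipocyte was met by its markers in the control libraries: Adipoq, the gene of adiponectin, had 273 and 300.0 normalized reads in LTK-14A cells, 5648 and 5364 in DMSO cells, and 6587 and 4802 in untreated cells. All 12 adipocyte markers tested fell in LTK-14A against DMSO cells, beside 6.58% of all genes. Their median log2 fold change was -4.02 against DMSO and -4.26 against untreated cells. Their summed level, which the most abundant markers weigh most, was 37887 to 40545 in LTK-14A, 91757 to 97373 in DMSO and 83074 to 107516 in untreated libraries. In bulk RNA, fewer differentiated cells and less RNA of these genes per cell cannot be told apart, and the part that this difference has in the chemokine values was not tested.

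In LTK-14A against DMSO cells, Ccl9, Ccl6, Ccl7, Ccl8 and Cxcl12 rose and Cxcl10 fell. Of the 23 genes tested, 6 (26.1%) passed an adjusted p of 0.05 in limma's moderated test with Benjamini-Hochberg adjustment, beside 10.6% of all 24139 genes tested. The 5 that rose compare with 3.98% of all genes called higher, and the 1 that fell with 6.58% called lower. Among CC ligands 4 of 11 tested genes rose and 0 fell, and among CXC ligands 1 of 11 rose and 1 fell. The single CX3C gene did not pass. The median log2 fold change was 0.24 over the 23 genes and -0.05 over all genes tested. In 12 of the 23 the LTK-14A and DMSO libraries did not overlap, 9 with LTK-14A higher and 3 with LTK-14A lower. The same was true of 54.3% of all genes, 24.5% with LTK-14A higher and 29.8% with LTK-14A lower. Leaving out LTK-14A replicate 1 or DMSO replicate 1 left 2 calls among the chemokine genes, leaving out LTK-14A replicate 2 or DMSO replicate 2 left 3, and leaving out either untreated library gave 8. Calls over all genes moved the same way, to 2.51% to 3.52% of genes without 1 LTK-14A or DMSO library and to 15.4% and 15.5% without untreated replicate 1 and 2. Without the variance trend 3 chemokine genes passed, beside 4.99% of all genes, and Cxcl10 (adjusted p = 0.131), Cxcl12 (adjusted p = 0.121) and Ccl8 (adjusted p = 0.0595) did not.

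**Figure D1:**
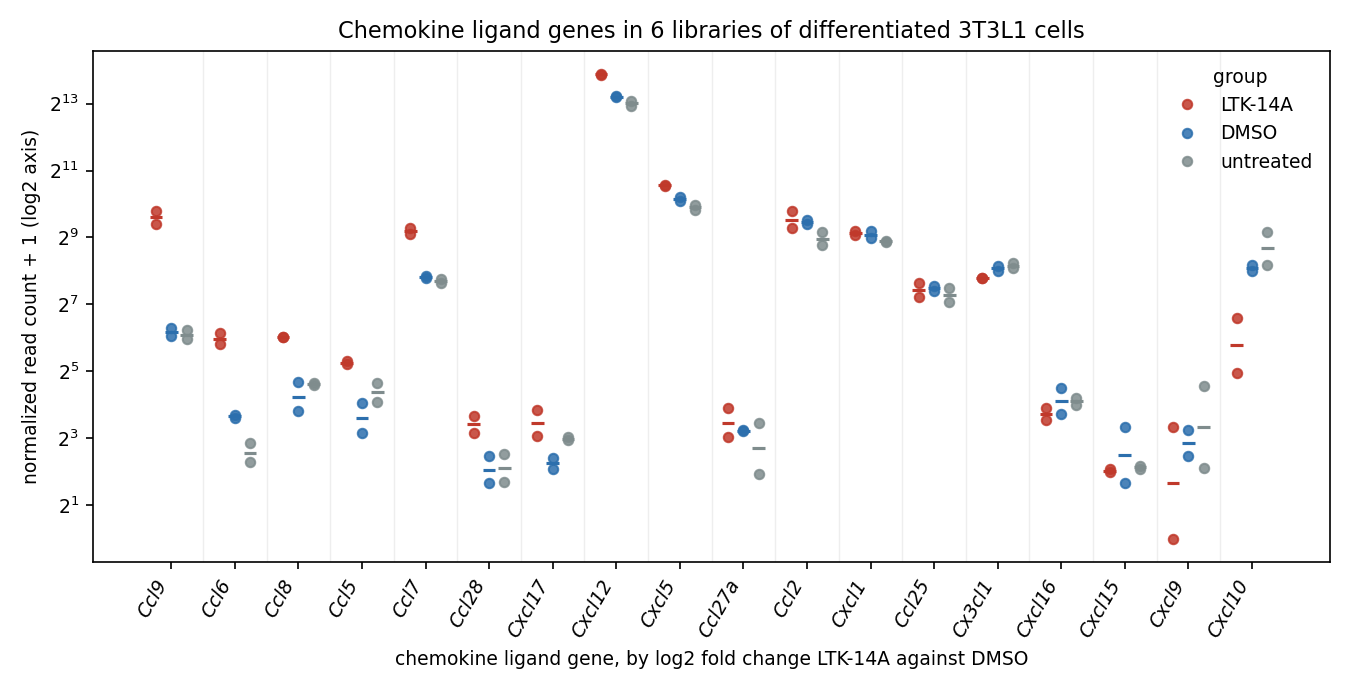
Normalized read count in each library, on a log axis, for the 18 chemokine ligand genes with a mean of at least 5 in at least 1 group, plotted as value + 1 with a short line at each group's mean of the log2 values. Ccl9 lies at 672 to 891 in the LTK-14A libraries and at 61.9 to 77.8 in the other 4, and Cxcl10 lies at 30.2 and 94.9 in the LTK-14A libraries, below the other 4.

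Summed over all 40 genes, chemokine transcripts made up 0.310% and 0.315% of the normalized reads in LTK-14A libraries, 0.216% and 0.201% in DMSO libraries, and 0.191% and 0.150% in untreated libraries. The LTK-14A libraries were thus above the other 4. Cxcl12 alone held 75.9% and 75.1% of that sum in LTK-14A, 73.1% and 73.0% in DMSO, and 71.3% and 73.1% in untreated libraries. These shares are of reads not divided by length, and Cxcl12 has the longest exon sequence of the 40 genes, 8176 bases. Levels per length are given below. Without Cxcl12, the CC ligands summed to 2454 and 2509 in LTK-14A, 1211 and 1260 in DMSO, and 1093 and 903 in untreated cells. The CXC ligands other than Cxcl12 summed to 2121 and 2199 in LTK-14A, 2055 and 1922 in DMSO, and 2099 and 1702 in untreated cells. The LTK-14A libraries were above the others in both sums, but for the CXC ligands LTK-14A replicate 1, at 2121, lay close to untreated replicate 1, at 2099.

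Ccl9 and Ccl6 encode related CC chemokines of the mouse that act on Ccr1, and the genes lie next to each other on the minus strand of chromosome 11. In mm10, Ccl9 (ENSMUSG00000019122) spans chr11:83572919-83578636 and Ccl6 (ENSMUSG00000018927) spans chr11:83587882-83593087. Ccl9 had 891 and 672 normalized reads in LTK-14A cells, 77.8 and 65.4 in DMSO cells, and 61.9 and 74.0 in untreated cells. Both LTK-14A libraries lay far above the other 4, which overlapped with one another. The log2 fold change of LTK-14A against DMSO was 3.42 (SE 0.20, adjusted p = 0.00014), which is 10.7-fold for value + 1. The arithmetic means were 781 ± 155 in LTK-14A and 71.6 ± 8.81 in DMSO cells (SD, n = 2). Ccl6 had 69.3 and 55.6 in LTK-14A cells, 12.0 and 11.3 in DMSO cells, and 6.23 and 3.88 in untreated cells. The 3 groups did not overlap, and the LTK-14A libraries were the highest. Its log2 fold change was 2.32 (SE 0.41, adjusted p = 0.0135), which no longer passed when any 1 LTK-14A or DMSO library was left out (adjusted p = 0.0771 to 0.121).

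The promoter windows of the neighbouring genes Ccl9 and Ccl6, which both rose, are shown together with that of Cxcl10, the gene that fell, which was added after its values were seen. Each runs from 250 bases before to 50 bases after the RefSeq start (GRCm38.p6, minus strand, printed 5′ to 3′), at chr11:83578587-83578886 for Ccl9, chr11:83593038-83593337 for Ccl6 and chr5:92348840-92349139 for Cxcl10. Capitals mark the motifs searched on both strands, which were the kappaB consensus bound by NF-kB, the interferon-response core (GAAA, then any 2 bases, then GAAA again), the AP-1 motif TGANTCA and the C/EBP motif TTGCNNAA.
Ccl9: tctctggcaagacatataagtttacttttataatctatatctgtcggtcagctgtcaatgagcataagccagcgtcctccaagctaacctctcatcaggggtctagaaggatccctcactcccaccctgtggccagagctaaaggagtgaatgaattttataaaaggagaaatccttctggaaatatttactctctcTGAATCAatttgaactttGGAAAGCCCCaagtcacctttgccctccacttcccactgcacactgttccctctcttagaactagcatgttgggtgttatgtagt
Ccl6: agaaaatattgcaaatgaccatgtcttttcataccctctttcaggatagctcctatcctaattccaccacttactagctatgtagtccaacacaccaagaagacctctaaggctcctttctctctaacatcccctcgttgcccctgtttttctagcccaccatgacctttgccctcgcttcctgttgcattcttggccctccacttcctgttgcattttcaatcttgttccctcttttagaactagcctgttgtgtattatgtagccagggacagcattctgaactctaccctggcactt
Cxcl10: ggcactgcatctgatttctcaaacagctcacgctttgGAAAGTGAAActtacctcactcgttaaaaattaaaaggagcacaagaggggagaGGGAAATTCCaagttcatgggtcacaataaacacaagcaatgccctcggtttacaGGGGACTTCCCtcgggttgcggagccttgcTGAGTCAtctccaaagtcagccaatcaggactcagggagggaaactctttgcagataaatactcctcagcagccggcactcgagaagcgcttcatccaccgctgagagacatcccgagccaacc
The Ccl9 window held 1 TGANTCA match 53 bases before the start and 1 kappaB match 35 bases before it. The Ccl6 window held no match to any of the 4 motifs. The Cxcl10 window held an interferon-response match 213 bases before the start, a kappaB match at 159, a pair of overlapping kappaB matches at 104 and 103, and a TGANTCA match at 74. Of all 32851 RefSeq mouse windows of the same length, 8.46% held the kappaB consensus, 3.44% the interferon-response core, 7.81% TGANTCA and 10.8% TTGCNNAA. Windows were at hand for 27 chemokine ligand genes. Ccl7, which rose, was not among them, nor were Ccl2, Ccl5 and Cxcl5. The kappaB consensus also lay in windows of Cxcl1, Cxcl3 and Ccl27a, which were tested and not called against DMSO. Of these, Cxcl3 and Ccl27a had low values. It lay as well in windows of Cxcl2, Ccl1 and Ccl20, which were too low to be tested. TGANTCA also lay in windows of Ccl27a, Ccl27b, Ccl28 and Cxcl9, and the interferon-response core in those of Ccl19 and Cxcl14. TTGCNNAA lay in windows of Ccl21a, Ccl27a, Ccl27b and Cxcl13. The windows of Ccl8 and Cxcl12, which rose, held none of the 4 motifs. In the best local alignment of the Ccl9 and Ccl6 windows, 59 of 74 columns were identical (79.7%, 7 gaps). The alignment begins 18 bases before the start of Ccl9 and 59 before that of Ccl6. It covers positions 233 to 299 of the Ccl9 window, mostly past the start. In the Ccl6 window it covers positions 192 to 265, mostly before the start. The motif matches marked in the Ccl9 window lie outside the aligned part. A match describes letters in a window and is not a site, and its absence says nothing of a factor. Ccl9 and Ccl6 share no 50-base run of exon sequence.

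The stretch of chromosome 11 that holds Ccl9 and Ccl6 runs from Ccl5 to Ccl4 (chr11:83525778-83664683) and has 5 chemokine genes. Of these, 3 were tested and 2 rose, beside 3.98% of all genes called higher. Ccl5, which attracts T cells and monocytes, had 38.4 and 36.0 in LTK-14A cells, 15.5 and 7.98 in DMSO cells, and 24.1 and 16.1 in untreated cells. Both LTK-14A libraries were above the other 4, and both DMSO libraries were the lowest. The log2 fold change against DMSO was 1.65 (SE 0.43) and missed the threshold (adjusted p = 0.0541). It passed with the 2 groups alone (adjusted p = 0.0492), with quantile normalization (0.0412) and with a replicate block (0.0431). It missed the threshold with a pseudocount of 0.1 (0.0679), no filter (0.0506), a deposited 0 set to 1 (0.0606) and no variance trend (0.093). Without 1 LTK-14A or DMSO library the log2 fold change of Ccl5 ranged from 1.21 to 2.09. Against untreated cells it was 0.88 and did not pass (adjusted p = 0.234). A gene without a chemokine symbol in the same stretch, E230016K23Rik (ENSMUSG00000051832), lies on the plus strand at chr11:83582056-83623693 and spans Ccl6. It had 65.0 and 62.4 in LTK-14A, 11.0 and 12.3 in DMSO, and 9.90 and 5.27 in untreated cells. Its LTK-14A libraries were above the rest, with a log2 fold change of 2.35 against DMSO (SE 0.42, adjusted p = 0.0131). No annotated exons of E230016K23Rik and Ccl6 overlap, but the labels do not say whether counting used strand, so reads from outside annotated exons cannot be assigned to either.

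**Figure D2:**
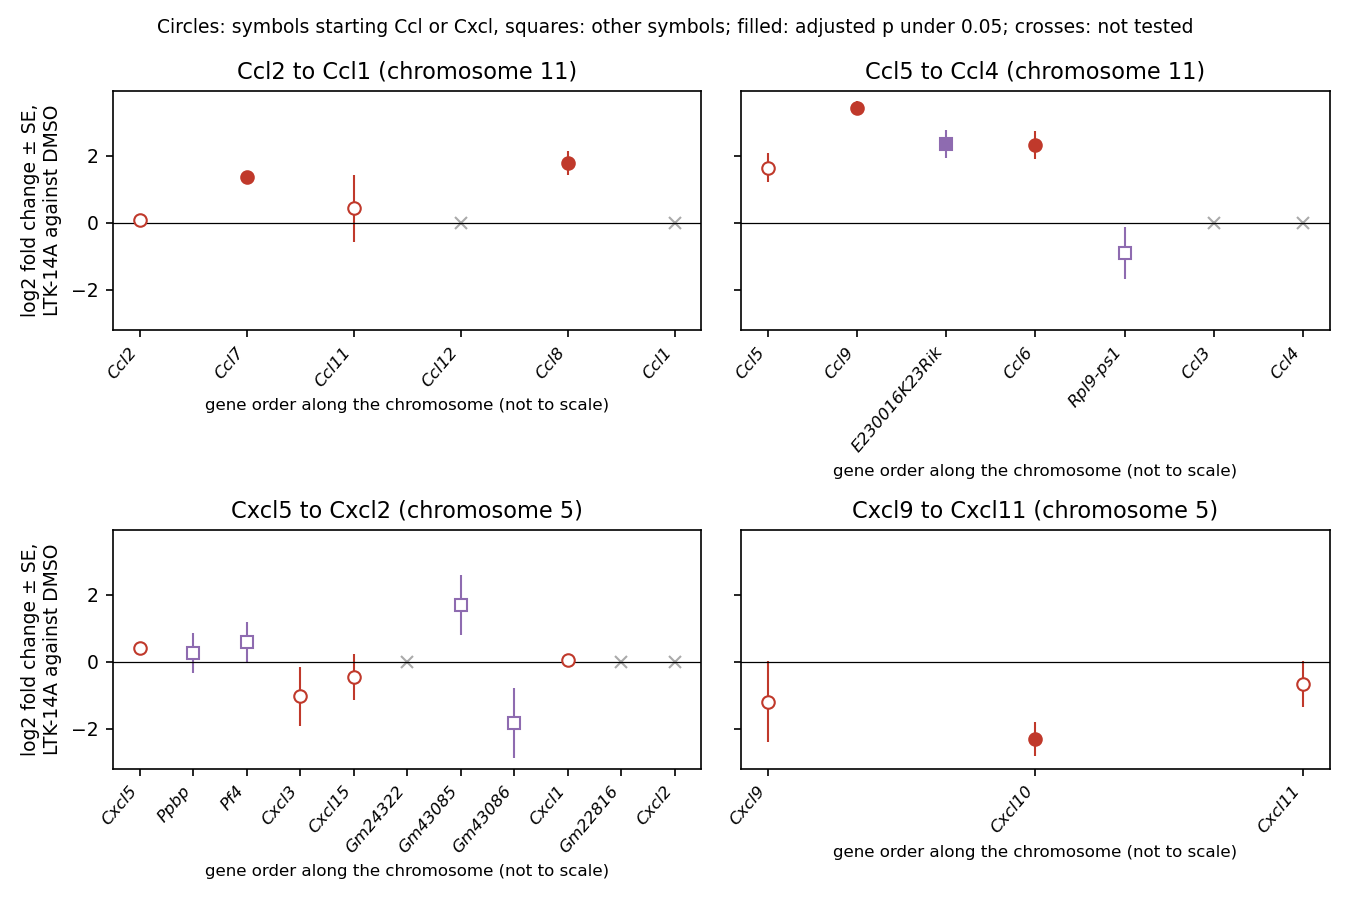
Log2 fold change of LTK-14A against DMSO, with its standard error, for the genes of 4 chemokine gene clusters, in the order of the genes along the chromosome. Circles are genes with Ccl or Cxcl symbols, squares are genes with other symbols, the CXC chemokines Ppbp and Pf4 included, filled symbols passed the adjusted p of 0.05, and crosses at 0 were not tested. Ccl9 and Ccl6 lie at 3.42 and 2.32 with E230016K23Rik drawn between them, and Ccl7, at 1.37, lies between Ccl2, at 0.07, and the low-valued Ccl11.

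A second group of monocyte-attracting genes lies on the same chromosome from Ccl2 to Ccl1 (chr11:82035571-82305690). Of its 6 members, 4 were tested and 2 rose, beside 3.98% of all genes called higher. Ccl7 (ENSMUSG00000035373, chr11:82045712-82047525, plus strand), a ligand of Ccr2 and other CC receptors, had 545 and 623 in LTK-14A cells, 221 and 229.5 in DMSO cells, and 216 and 199 in untreated cells. Both LTK-14A libraries were above the other 4 by more than their own spread. Its log2 fold change against DMSO was 1.37 (SE 0.14, adjusted p = 0.00121). Ccl8 (ENSMUSG00000009185, chr11:82115185-82116799, plus strand), which in the mouse acts on Ccr8, had 64.3 and 64.8 in LTK-14A cells, 13.1 and 24.7 in DMSO cells, and 24.1 and 23.2 in untreated cells. The LTK-14A libraries were the highest and DMSO replicate 1 the lowest. The log2 fold change was 1.79 (SE 0.37, adjusted p = 0.0227), and without DMSO replicate 1 it was 1.35 and did not pass (adjusted p = 0.113). Leaving out either LTK-14A library also ended the call of Ccl8 (adjusted p = 0.144 without replicate 1 and 0.133 without replicate 2).

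Ccl2, the main monocyte attractant and the immediate neighbour of Ccl7, did not pass. It had 627 and 876 in LTK-14A cells, 671 and 739 in DMSO cells, and 569 and 436 in untreated cells. The LTK-14A libraries enclosed both DMSO values. Its log2 fold change against DMSO was 0.07, with a 95% interval of -0.39 to 0.53 (adjusted p = 0.863). That interval ends below the 1.37 of Ccl7. Ccl11, the eosinophil attractant eotaxin, was at 0 to 4.65 in the 6 libraries.

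Cxcl12 had the highest level of the family in every library. It is the ligand of Cxcr4 and of the scavenger receptor Ackr3 and lies by itself on chromosome 6 (ENSMUSG00000061353, chr6:117168535-117181367, plus strand). It had 15109 and 14835 in LTK-14A cells, 9657 and 9299.95 in DMSO cells, and 8667 and 7791 in untreated cells. The 3 groups did not overlap. The log2 fold change against DMSO was 0.66 (SE 0.12, adjusted p = 0.0166), or 1.58-fold. The call was lost without any 1 LTK-14A or DMSO library (adjusted p = 0.122 to 0.15) while the log2 fold change stayed between 0.63 and 0.69.

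Cxcl10 fell. It is an interferon-induced ligand of Cxcr3 that attracts activated T cells (ENSMUSG00000034855, chr5:92346638-92348889, minus strand). It had 30.2 and 94.9 in LTK-14A cells, 252 and 289.9 in DMSO cells, and 567 and 291 in untreated cells. Both LTK-14A libraries were below the other 4, with replicate 1 well below replicate 2. The log2 fold change against DMSO was -2.31 (SE 0.51, adjusted p = 0.0297). Without LTK-14A replicate 1 it was -1.50 and did not pass (adjusted p = 0.135), and it also missed the threshold without DMSO replicate 1 (adjusted p = 0.137) or DMSO replicate 2 (adjusted p = 0.167). Of the exon length of Cxcl10, 5.91% overlaps with Art3 on the opposite strand. The neighbouring Cxcr3 ligands were low: Cxcl9 had 0 and 9.16 in LTK-14A, 8.58 and 4.51 in DMSO, and 22.6 and 3.33 in untreated cells, and Cxcl11 stayed between 0 and 2.26. Their groups overlapped between LTK-14A and DMSO.

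The order of the replicates in Cxcl10 was shared by other interferon-induced genes. Of a list of 20 such genes, all tested, 20 were lower in LTK-14A replicate 1 than in replicate 2, 20 were lower in DMSO replicate 1 than in replicate 2, and 17 were higher in untreated replicate 1 than in replicate 2. In LTK-14A against DMSO, 0 of the 20 rose and 7 fell (35%), with a median log2 fold change of -0.65. Of all genes, 10.6% were called and 6.58% were called lower. This list, like the other gene lists, was chosen with earlier results of these data known, so its share is no independent support. Without 1 LTK-14A or DMSO library, 1 or 2 of the 20 passed, and without either untreated library 9 did. Gbp2, a guanylate-binding GTPase of cell defence, had 131 and 174 in LTK-14A, 560 and 609 in DMSO, and 726 and 601 in untreated cells. Its LTK-14A libraries were below the other 4, with a log2 fold change of -1.94 against DMSO (adjusted p = 0.00079). Gbp3 (-1.39), the interferon regulatory factor gene Irf7 (-1.07) and the immunity-related GTPase gene Igtp (-1.59) also fell. The members with the highest levels did not pass: Ifit3 had a log2 fold change of 0.28 (adjusted p = 0.575) and Oasl2 one of -0.61 (adjusted p = 0.162).

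CXC ligands that attract neutrophils, most of them through Cxcr2, lie together on chromosome 5 from Cxcl5 to Cxcl2 (chr5:90759360-90905938). Of the 4 tested there 0 passed against DMSO, beside 10.6% of all genes. The same stretch holds Ppbp and Pf4, CXC chemokines of platelets whose symbols fall outside the choice of genes and which are in none of the sums. Ppbp had 13.5 and 4.58 in LTK-14A, 6.44 and 6.56 in DMSO, and 4.76 and 5.92 in untreated cells, and Pf4 stayed between 1.81 and 5.40. Neither passed in LTK-14A against DMSO. Cxcl5 (ENSMUSG00000029371, chr5:90759360-90761624, plus strand) had 1484 and 1527 in LTK-14A cells, 1173 and 1089 in DMSO cells, and 1010.45 and 900.1 in untreated cells. The 3 groups did not overlap. Against DMSO its log2 fold change was 0.41 with a 95% interval of 0.14 to 0.68 (SE 0.12, adjusted p = 0.0649). At the same fold change it passed with the 2 groups alone (adjusted p = 0.0173), where 15.9% of all genes passed. In the other settings, run on all 6 libraries, Cxcl5 missed the threshold (adjusted p = 0.0623 to 0.275). Without 1 LTK-14A or DMSO library its log2 fold change ranged from 0.36 to 0.47. Cxcl1 had 583 and 538 in LTK-14A, 589 and 500.5 in DMSO, and 468 and 477 in untreated cells. Its LTK-14A and DMSO libraries overlapped, with a log2 fold change of 0.04 and an interval of -0.26 to 0.35. Cxcl15, a mouse neutrophil attractant of the lung, had 3.21 and 3.01 in LTK-14A, 2.15 and 9.03 in DMSO, and 3.56 and 3.26 in untreated cells. Cxcl3 stayed between 0 and 4.51.

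Both ligands that are made as membrane-anchored proteins, Cx3cl1 and Cxcl16, did not pass. Cx3cl1, or fractalkine, had 222 and 219 in LTK-14A cells, 283 and 257 in DMSO cells, and 299 and 269 in untreated cells. Its LTK-14A libraries were below the other 4, with a log2 fold change against DMSO of -0.29 and a 95% interval of -0.62 to 0.04 (adjusted p = 0.243). Cxcl16, the ligand of Cxcr6, had 10.8 and 13.9 in LTK-14A, 21.8 and 12.2 in DMSO, and 15.0 and 17.4 in untreated cells. Its LTK-14A and DMSO libraries overlapped, and 18.3% of its exon length overlaps with Zmynd15 on the opposite strand.

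The ligands best known from epithelia were low, apart from Ccl25. Ccl25, a ligand of Ccr9 known from thymus and small intestine, had 200.2 and 149 in LTK-14A cells, 188 and 169 in DMSO cells, and 177 and 135 in untreated cells. The 3 groups overlapped, with a log2 fold change against DMSO of -0.05 and a 95% interval of -0.54 to 0.45. Of the exon length of Ccl25, 2.74% overlaps with Elavl1 on the opposite strand. Ccl28, a mucosal ligand of Ccr10, had 7.92 and 11.8 in LTK-14A, 2.15 and 4.51 in DMSO, and 4.76 and 2.22 in untreated cells. Its LTK-14A libraries were the highest, but the log2 fold change of 1.36 did not pass (adjusted p = 0.211). Cxcl17, a mucosal chemokine, had 7.32 and 13.4 in LTK-14A, 4.31 and 3.27 in DMSO, and 6.68 and 7.25 in untreated cells, and its log2 fold change of 1.20 against DMSO did not pass either (adjusted p = 0.209). Ccl27a, the skin ligand of Ccr10, had 7.20 and 13.98 in LTK-14A, 8.29 and 8.54 in DMSO, and 2.86 and 10.0 in untreated cells. Its groups overlapped, and 45.0% of its exon sequence is shared in runs of 50 bases with near-identical copies, so its values are uncertain. Cxcl13, which draws B cells into follicles, had 0 and 0 in LTK-14A, 2.15 and 6.75 in DMSO, and 4.76 and 0 in untreated cells, and Ccl17, a ligand of Ccr4, stayed between 0 and 2.64.

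Against untreated cells, the LTK-14A libraries gave 6 genes that rose and 1 that fell of the 23 (30.4%), beside 12.9% of all genes, 4.68% called higher and 8.17% called lower. This comparison shares its LTK-14A libraries with the one against DMSO, so it is no independent repeat. The log2 fold changes were 3.50 for Ccl9 (adjusted p = 0.000106), 3.41 for Ccl6 (adjusted p = 0.00237), 1.49 for Ccl7 (adjusted p = 0.000744), 1.41 for Ccl8 (adjusted p = 0.0452), 0.87 for Cxcl12 (adjusted p = 0.00476), 0.66 for Cxcl5 (adjusted p = 0.0108) and -2.90 for Cxcl10 (adjusted p = 0.0108). Cxcl5 was the gene called here and not against DMSO. The call of Ccl8 was lost without any 1 LTK-14A or untreated library (adjusted p = 0.0796 to 0.196), that of Cxcl12 without either LTK-14A library (0.07 without replicate 1 and 0.0593 without replicate 2), that of Cxcl5 likewise (0.0959 and 0.102), and that of Cxcl10 without LTK-14A replicate 1 (0.0553, with a log2 fold change of -2.09). Ccl2 did not pass, at 0.57 (adjusted p = 0.104), but without untreated replicate 1 it was 0.77 and passed (adjusted p = 0.045). The median over the 23 genes was 0.46, and -0.03 over all genes. In 15 of the 23 the LTK-14A and untreated libraries did not overlap, 11 with LTK-14A higher and 4 lower, beside 53.6% of all genes, 24.6% higher and 28.9% lower. The count of 7 became 3 when LTK-14A replicate 1 was left out and 4 when replicate 2 was, beside 3.68% and 4.4% of all genes.

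**Figure D3:**
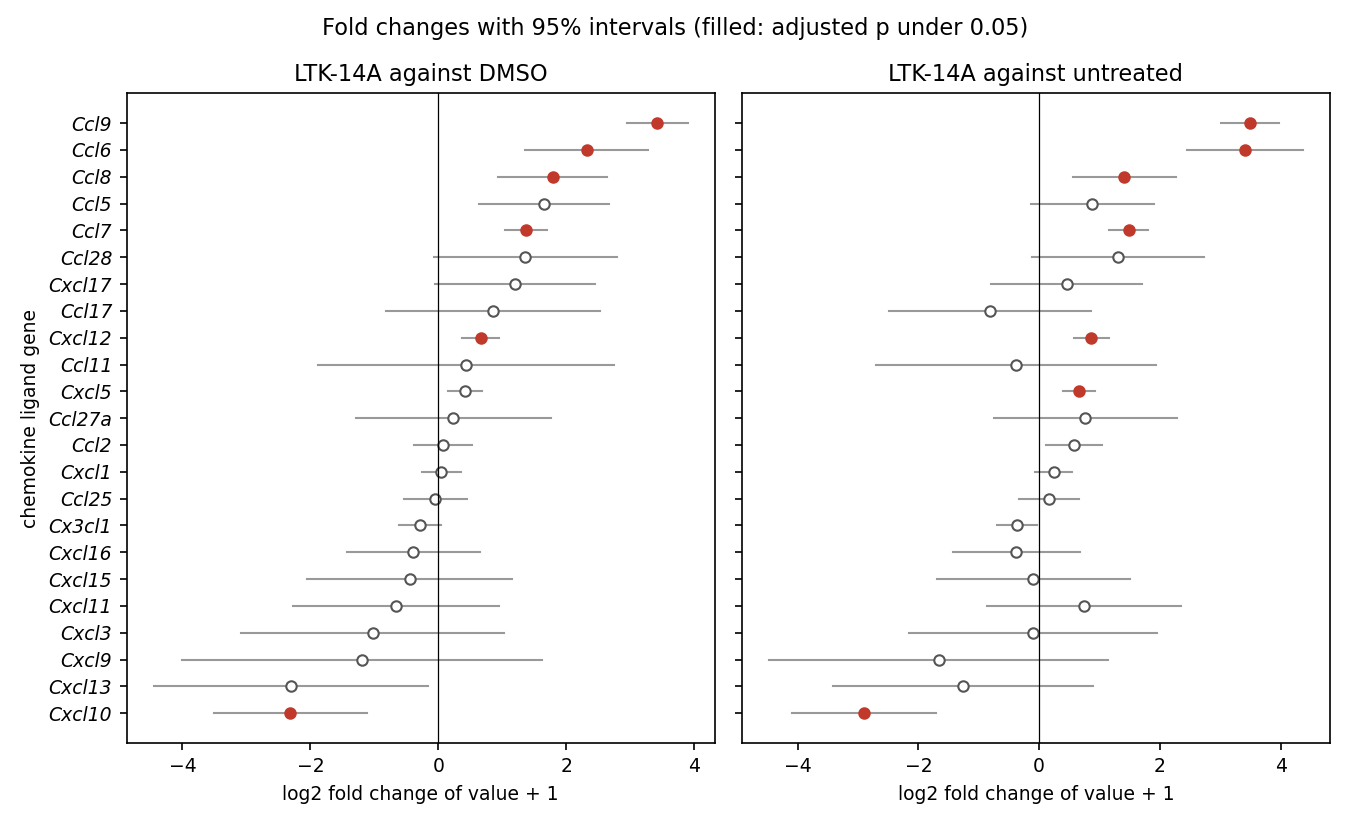
Log2 fold change of value + 1 with its 95% interval for the 23 tested chemokine ligand genes, for LTK-14A against DMSO and LTK-14A against untreated, with filled points past the adjusted p of 0.05. Ccl9 is the farthest to the right in both LTK-14A comparisons, at 3.42 and 3.50, and Cxcl10 the farthest to the left, at -2.31 and -2.90. Cxcl13 was listed at 0 in each LTK-14A library, so its position depends on the added 1.

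DMSO by itself, set against untreated cells, gave no call among the 23 genes in limma, beside 0.0249% of all genes. At an unadjusted p of 0.05, 2 of the 23 passed in limma, Ccl6 and Ccl2, beside 5.83% of all genes. Their log2 fold changes of DMSO against untreated were 1.09 (SE 0.41) and 0.50 (SE 0.20). Both were higher in DMSO than in untreated cells in every library. The median log2 fold change of DMSO against untreated was 0.12 over the 23 genes and -0.0035 over all genes. The DMSO and untreated libraries did not overlap in 11 of the 23, 7 with DMSO higher and 4 lower, beside 33.1% of all genes, 16.0% higher and 17.2% lower.

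Levels can be set between genes only per length, so normalized reads were divided by kilobase of exon. On that scale Cxcl12 led in every library, at a mean of 1831 in LTK-14A, 1159 in DMSO and 1006 in untreated cells. Cxcl5 stood at 808 in LTK-14A, 607 in DMSO and 513 in untreated cells, and Ccl2 at 661, 620 and 441 in the same order of groups. Cxcl5 and Ccl2 overlapped between their libraries in DMSO and untreated cells, so neither is ahead there. Ccl7 stood at 729 in LTK-14A cells, where its libraries overlapped with those of Ccl2, against 281 in DMSO and 259 in untreated cells. In DMSO cells it overlapped instead with Cxcl1, which stood at 299 in LTK-14A, 291 in DMSO and 252 in untreated cells. Ccl9 stood at 257 in LTK-14A cells, where its libraries (293 and 221) overlapped with those of Cxcl1 (311 and 287). It stood at 23.5 in DMSO and 22.3 in untreated cells, where it overlapped with Ccl25, at 24.0 in DMSO and 20.9 in untreated cells. Cxcl10 stood at 27.8 in LTK-14A, 120 in DMSO and 191 in untreated cells.

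Of 24 chemokine receptor genes listed, 9 were at 0 in all 6 libraries, among them Cxcr4, Ccr1 and Ccr2, which bind Cxcl12, Ccl9 and Ccl2, 15 had a value in at least 1 library, and 10 were tested. There were 6 above 0 in all 6 libraries, which were Ccr9, Ccr10, Cxcr6, Ackr3, Ackr4 and Pitpnm3, and no receptor exceeded 55.1 normalized reads. Of the 10 tested, 0 rose and 1 fell in LTK-14A against DMSO (10%), a share near the 10.6% of all genes. That gene was Ackr4, a scavenger of Ccl19, Ccl21 and Ccl25, which had 15.2 and 14.3 in LTK-14A, 55.1 and 53.4 in DMSO, and 34.5 and 46.7 in untreated cells. Its LTK-14A libraries were the lowest (log2 fold change -1.81, SE 0.30, adjusted p = 0.0105), but the call was lost without any 1 LTK-14A or DMSO library. Ackr3, the second receptor of Cxcl12, had 20.6 and 29.8 in LTK-14A, 24.8 and 38.3 in DMSO, and 41.0 and 36.6 in untreated cells, and its groups overlapped between LTK-14A and DMSO (log2 fold change -0.30, adjusted p = 0.640).

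Among 28 genes of the NF-kB pathway, which controls many chemokine promoters, 0 rose and 2 fell (7.14%), with a median log2 fold change of -0.22, and the share that fell is near the 6.58% of all genes called lower. Without any 1 LTK-14A or DMSO library 1 of the 28 passed, and without either untreated library 8 did. Nfkbia, the inhibitor that NF-kB itself induces, had 107 and 132 in LTK-14A, 301 and 295 in DMSO, and 294 and 344 in untreated cells. Both LTK-14A libraries were below the other 4 (log2 fold change -1.32, SE 0.17, adjusted p = 0.00331). The adaptor gene Myd88 fell by 0.90 on the log2 scale (adjusted p = 0.0269). Of 19 other inflammatory cytokine and acute-phase genes tested, 3 rose and 3 fell (31.6%, beside 10.6% of all genes), with a median of 0.20, and Il1b, Tnf, Csf2, Csf3 and Icam1 were at 0 in all libraries. These 6 calls became 3 without any 1 LTK-14A or DMSO library. Spp1, the gene of the matrix cytokine osteopontin, had 5822 and 5437 in LTK-14A, 2051 and 1554 in DMSO, and 1661 and 1482 in untreated cells (log2 fold change against DMSO 1.66, adjusted p = 0.000886). Csf1, the macrophage growth factor, rose as well, by 0.42. The acute-phase genes Hp (-2.34), Saa3 (-1.07) and Lcn2 (-1.01) fell.

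Of 18 tested genes whose products process or bind chemokines, 4 rose and 0 fell (22.2%, beside 10.6% of all genes called and 3.98% called higher), with a median log2 fold change of 0.34. Without any 1 LTK-14A or DMSO library 2 of the 18 passed, and without either untreated library 7 did. Mmp2, a gelatinase that can cleave Cxcl12 and Ccl7, had 33653 and 36155 in LTK-14A, 11588 and 12768 in DMSO, and 11500.1 and 15811 in untreated cells. Its LTK-14A libraries were above all others (log2 fold change against DMSO 1.52, SE 0.18, adjusted p = 0.00252). The aminopeptidase gene Anpep (1.38), the heparan sulfate proteoglycan gene Gpc1 (1.15) and the lysosomal protease gene Ctsb (0.48) also rose, while Hspg2, the gene of perlecan, did not pass at -0.14 (adjusted p = 0.701). Of 7 tested genes of the chemokine-like CMTM family and chemerin, 2 rose and 1 fell (42.9%, beside 10.6% of all genes), with a median of 0.69. Cmtm4, which encodes a membrane protein, had 2915 and 2905 in LTK-14A, 1058 and 1038 in DMSO, and 906 and 1062 in untreated cells (log2 fold change against DMSO 1.47, adjusted p = 0.00049), and Cmtm3 rose by 0.69. Rarres2, the gene of the adipokine chemerin, had 546 and 446 in LTK-14A, 1560.16 and 1621 in DMSO, and 1704 and 1623 in untreated cells (log2 fold change against DMSO -1.69, adjusted p = 0.000418).

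**Figure D4:**
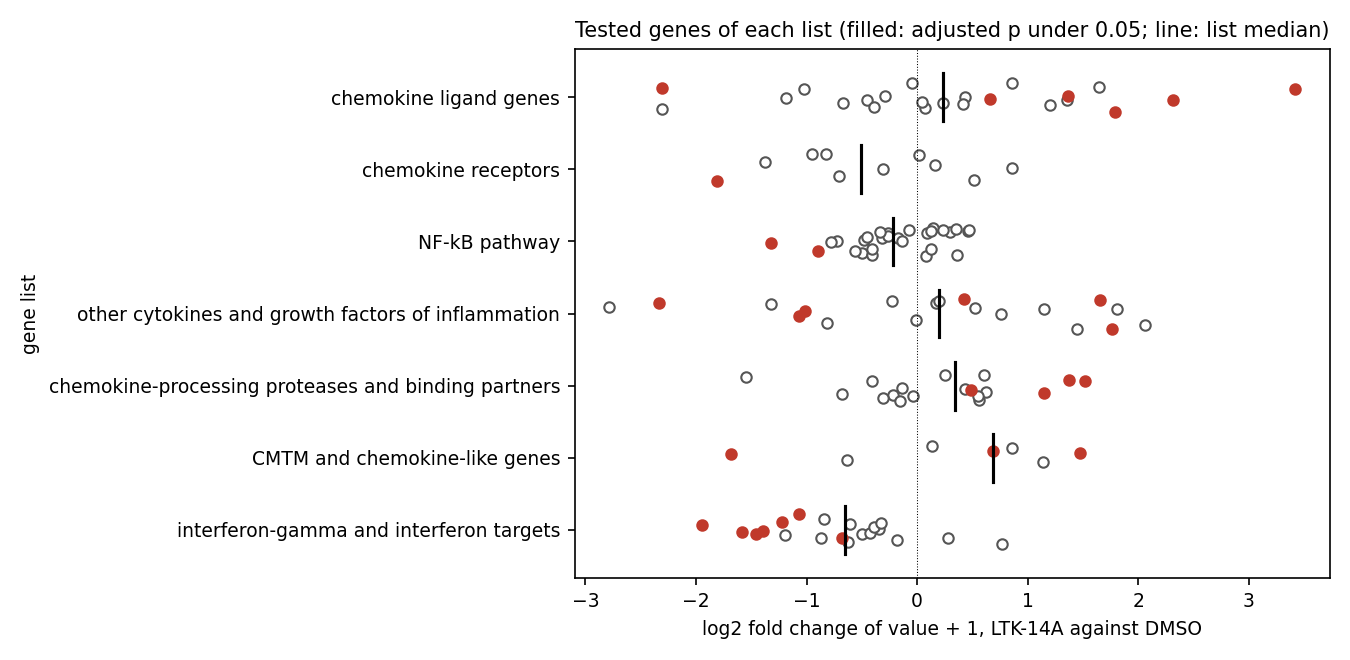
Log2 fold change of LTK-14A against DMSO for each tested gene of the chemokine ligands and of 6 related lists, with filled points past the adjusted p of 0.05 and a line at each list's median. The ligands had 5 that rose and 1 that fell of 23, and the interferon-induced list had 0 that rose and 7 that fell of 20.

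Leukocyte markers were examined because macrophages make many of these ligands. Of 20 macrophage markers, Ptprc, Itgam, C1qa, C1qb, C1qc and Tyrobp were at 0 in all 6 libraries, and 10 were tested, of which 1 rose and 2 fell in LTK-14A against DMSO (30%, beside 10.6% of all genes). Their summed level was 187 to 199 in LTK-14A, 346 to 394 in DMSO and 374 to 390.04 in untreated libraries. Mpeg1 alone held a large part of the sum in DMSO and untreated libraries. The median log2 fold change of the 10 tested was -0.60 against DMSO, with 2 above 0 and 8 below. Against untreated cells that median was 0.12, with 5 above 0 and 5 below. Cd68, a lysosomal protein, had 62.3 and 67.2 in LTK-14A, 14.9 and 16.6 in DMSO, and 11.1 and 8.29 in untreated cells, and rose by 1.97 on the log2 scale (adjusted p = 0.0133). Mpeg1, which encodes a pore-forming protein, had 21.6 and 41.3 in LTK-14A, 188 and 228 in DMSO, and 266 and 212 in untreated cells, and fell by 2.75. Lyz2 stood at 0 in LTK-14A cells and had 12.7 and 9.21 in DMSO and 9.58 and 12.2 in untreated cells. T cell, B cell and neutrophil markers summed to 5.40 to 6.84 in LTK-14A, 19.1 to 26.0 in DMSO and 14.2 to 16.7 in untreated libraries, with 8 of 14 at 0 throughout. Endothelial markers summed to 23.4 to 26.3, 45.1 to 57.7 and 44.8 to 49.1 in the same order, with 2 of 10 at 0 throughout. Of 12 fibroblast and preadipocyte markers, 4 rose and 1 fell in LTK-14A against DMSO (41.7%, beside 10.6% of all genes). These markers summed to 140273 to 146875 in LTK-14A, 93956 to 101942 in DMSO and 98822 to 154626 in untreated libraries. The LTK-14A sums thus lay within the untreated range. The median log2 fold change of these markers was 0.52 against DMSO and 0.05 against untreated cells, with 6 above 0 and 6 below against untreated. The part of any of these cell types in the chemokine values was not tested.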

How the data were processed

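Libraries of total RNA were made with a stranded kit after removal of ribosomal RNA, per the labels' protocols. The authors deposited 1 value per gene and library on a log10 scale. From the values themselves, each is a normalized read count taken to log2 and then to log10. The genome build is mm10 by the submitters' processing notes. Which aligner, counting tool, strand setting, annotation and normalization the authors used is not given in those sources. Values were raised as powers of 10 and then 2, and a deposited 0 was kept as 0. The values are not counts, so the edgeR test planned for counts was not used.

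Genes at 1 or more in at least 2 libraries were fitted as log2(value + 1) with a mean-variance trend in limma 3.58.1 under R 4.3.3, with 3 group means over 6 libraries and Benjamini-Hochberg adjustment over 24139 genes at 0.05. Fold changes understate those of low genes. The fit was tested on simulated data. Exon lengths came from GENCODE vM21, which gave the same coordinates for all 40 genes. The members and lists were chosen with earlier results of these data known. Values by library are given for each tested member with a group mean of at least 5. From each list, up to 4 called genes per direction and the 2 with the highest mean were chosen for naming, and some are not reported here. Alternatives were a pseudocount of 0.1, no filter, quantile normalization, no trend, a replicate block, the 2 groups alone, a deposited 0 set to 1, and each library left out.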

Additional observations from a re-analysis of the deposited data

How the results depend on the processing

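Counts are genes called of those tested. Without the variance trend they were 3 chemokine genes against DMSO (6 as reported) and 3 against untreated (7 as reported), and in LTK-14A against DMSO 1 NF-kB gene (2 as reported), 3 cytokine genes (6), 2 processing genes (4) and 1 interferon gene (7). With the 2 groups alone there were 8 NF-kB and 7 processing genes. Quantile normalization left 1 NF-kB gene, and a pseudocount of 0.1 left 4 interferon genes. Calls over all genes moved too, in LTK-14A against DMSO from 10.6% to 4.99% without the trend and 15.9% with the 2 groups alone. They were 9.74% with quantile normalization and 9.78% with a pseudocount of 0.1. Against untreated, 12.9% became 5.75% without the trend. Shares of all genes with 1 library left out are given above. The cause was not tested. With 1 library left out, calls in LTK-14A against DMSO ranged from 2 to 8 for chemokines, 0 to 1 for receptors, 1 to 8 for NF-kB, 3 to 7 for cytokines, 2 to 7 for processing, 2 to 3 for CMTM and 1 to 9 for interferon genes, and from 3 to 7 for chemokines against untreated. DMSO against untreated gave 0 chemokine calls in every setting.

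The calls of Ccl9 and Ccl7 held in all alternatives run. Cxcl10 missed the threshold against DMSO with a pseudocount of 0.1 (adjusted p = 0.0584). Against untreated, Ccl8 missed it with a pseudocount of 0.1 (0.0579), with a deposited 0 set to 1 (0.0505) and without the trend (0.0849), and without the trend so did Cxcl5 (0.114), Cxcl10 (0.0759) and Cxcl12 (0.0641). Uncalled genes changed sign against DMSO: Ccl25 with quantile normalization (0.0622). With 1 library left out, log2 fold changes ranged from -0.26 to 0.17 for Ccl25, -0.78 to 0.00267 for Cxcl16, -1.29 to 0.39 for Cxcl15, -0.0729 to 0.16 for Cxcl1, -2.86 to 0.48 for Cxcl9, -0.17 to 0.32 for Ccl2 and -0.20 to 0.67 for Ccl27a, and against untreated from -0.0505 to 0.37 for Ccl25 and -3.34 to 0.00662 for Cxcl9.

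A replicate block gave 7 chemokine calls against DMSO and 7 against untreated, beside 10.9% and 13.5% of all genes. Deviations of same-numbered libraries correlated at 0.15 (untreated and DMSO), -0.02 (untreated and LTK-14A) and 0.05 (DMSO and LTK-14A) across 12921 genes, so the numbers were not taken to pair the samples.

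No library was tested as an outlier within its group, since each group has 2. Raw counts are not known, so no counting interval is given.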
